A study of Homo sapiens with 4 samples.

Results

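Mediator is the multisubunit complex that relays signals from enhancer-bound factors to RNA polymerase II at promoters, and 48 genes for its subunits, for the polymerase itself and for the kinases that act at the same step were followed here. They were taken by symbol, not by any measured value, though the set was chosen with earlier results of these data known. It holds 30 MED genes, the 12 genes POLR2A to POLR2L, and the 6 kinase and cyclin genes CDK7, CDK8, CDK19, CCNC, CCNH and MNAT1, out of 60487 gene entries per library. RNA came from HCC1937, an established human breast cancer line without functional BRCA1, grown in culture. Cells given wild-type BRCA1 (wtBRCA1) and cells with a vector (genotype BRCA1 -/-) were each treated with OTX-015 or with DMSO, the control, which makes 4 groups. OTX-015 (birabresib) inhibits the BET bromodomain proteins, which bind acetylated histones. The sources used here give neither its dose and duration nor whether either line is a single clone.

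Mediator has head, middle and tail modules held together by the MED14 backbone, and a detachable kinase module in which CDK8 or its paralog CDK19 pairs with cyclin C and with the large subunits MED12 or MED12L and MED13 or MED13L. The kinase module can block the contact between Mediator and the polymerase. A separate trimer of CDK7, cyclin H and MAT1, the CDK-activating kinase of the initiation factor TFIIH, phosphorylates the C-terminal domain of the largest polymerase subunit.

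Each group had 1 library, so no value has a replicate. Levels are FPKM, fragment numbers scaled to transcript length and library size, as the authors computed them, and they can be compared between genes because they are per length. The sequencing depth is unknown, since the files hold no counts. FPKM values summed to between 909314 and 1496107 per library, and the 10 highest genes held 33.8% and 39.2% of the sum in the wtBRCA1 and vector libraries under OTX-015, against 15.3% and 17.4% under DMSO. BRCA1 was at 2712 FPKM in wtBRCA1 cells against 40.8 in vector cells under OTX-015, and at 171 in wtBRCA1 cells against 37.2 in vector cells under DMSO, the direction of the labels. The epithelial marker EPCAM was at 377 to 443 FPKM in the 4 libraries, and all 10 epithelial markers were above 0 in each, but most of the others differed between the lines. The basal keratin KRT5 was at 573 FPKM in wtBRCA1 cells and 23.2 in vector cells under OTX-015, and at 980 and 29.4 FPKM under DMSO. The luminal keratin KRT19 was at 1.39 FPKM in wtBRCA1 cells and 234 in vector cells under OTX-015, and at 3.97 and 124 FPKM under DMSO. Of 13 markers of leukocytes, endothelium and fibroblasts, 8 and 7 were at 0 in wtBRCA1 cells under OTX-015 and DMSO and 10 and 6 in vector cells, with CD68 the highest at 15.5 to 44.5 FPKM. In such bulk RNA, fewer cells of a type and less RNA per cell cannot be told apart.

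Differences were taken on log2(FPKM + 1), which understates changes of low genes. The test was a limma fit over all 18304 genes kept, with line and treatment as terms and adjusted p-values over all of them. It has 1 residual degree of freedom, the difference between the lines' responses. The fit draws each gene's spread toward that of genes at a similar level. MED19 and POLR2A, with differences of responses of 0.06 and -1.51 log2, thus had SEs of 0.32 and 0.39. A p-value here sets the size of an effect against this moderated spread, and says nothing of variation among cultures. Rose and fell refer to an adjusted p under 0.05 in that fit. All 48 genes passed the filter of 1 FPKM in at least 1 library, and 46 were at 1 FPKM or more in all 4. MED12 and MED27 were below 1 FPKM in vector cells under OTX-015 alone.

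The polymerase genes were the most abundant group. Their median level in wtBRCA1 cells was 166 FPKM with OTX-015 and 114.5 with DMSO, and in vector cells it was 125 with OTX-015 and 135 with DMSO. In the same order, the medians of the head, middle and tail Mediator genes with MED14 were 13.2 and 13.4 FPKM in wtBRCA1 cells and 11.8 and 15.8 FPKM in vector cells. POLR2G, a subunit of the stalk, had the highest mean over the libraries, 486 FPKM, and CCNC, the gene of cyclin C, the second highest at 297.5. CCNC stood far above the other kinase module genes: CDK8 averaged 11.5 FPKM, CDK19 10.6, and MED12 3.59. The lowest means were those of the head subunit MED27 at 2.13 FPKM and the middle subunit MED7 at 2.38. Within the polymerase the lowest were POLR2J at 18.35 FPKM and the stalk subunit POLR2D at 18.4, both below POLR2A at 60.98.

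**Figure D1:**
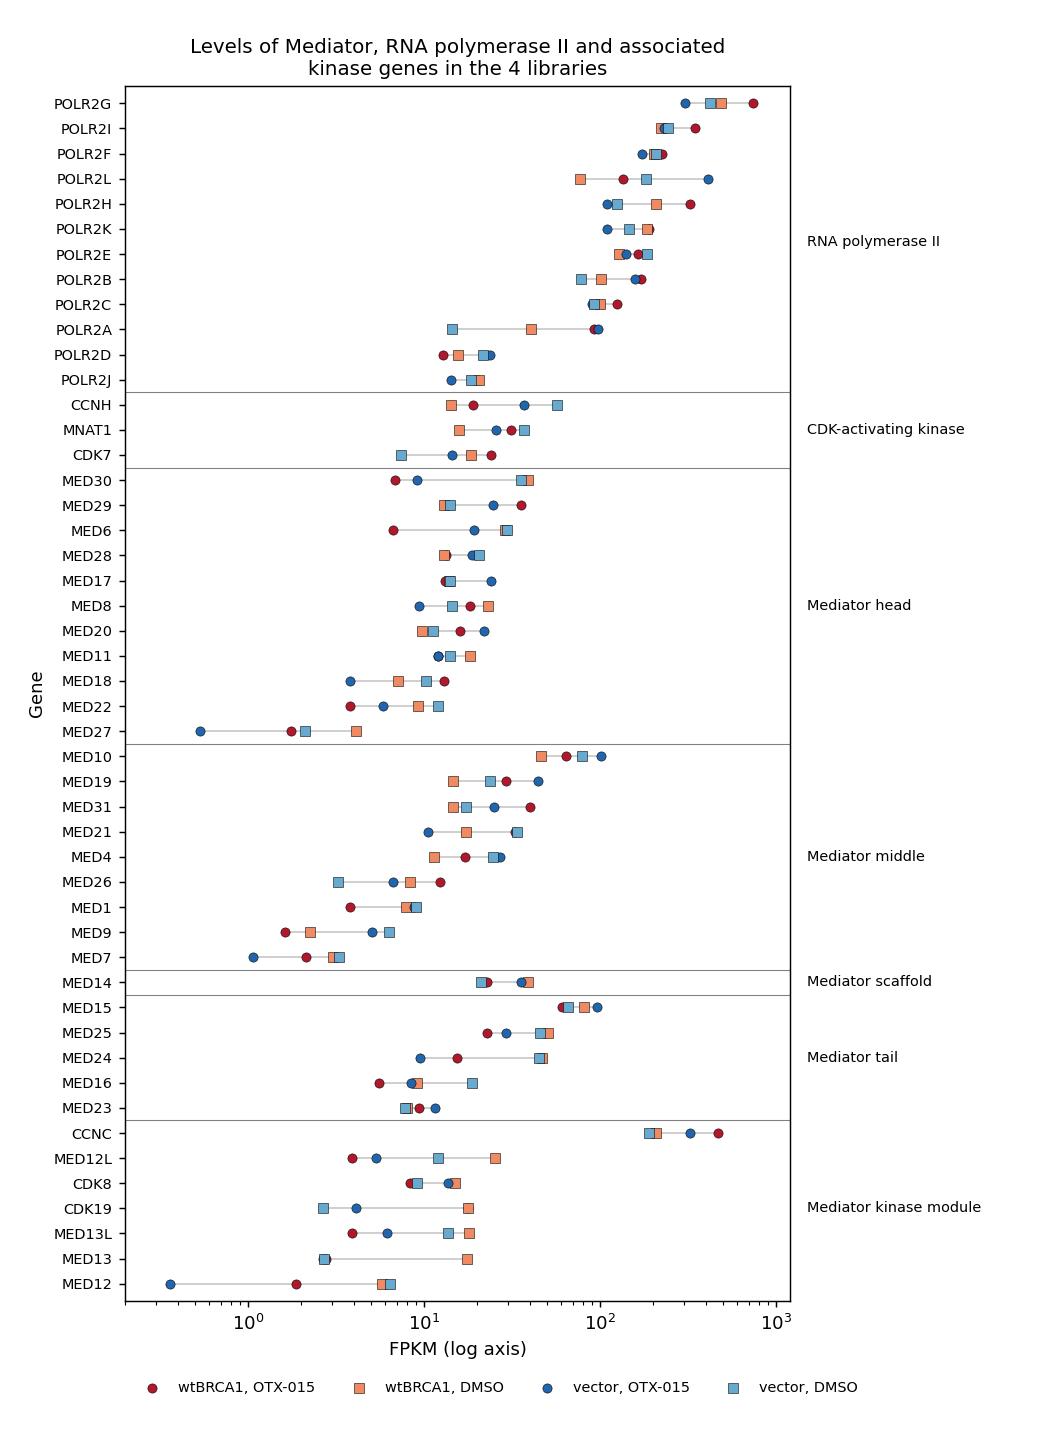
FPKM (log axis) of the 48 genes in the 4 libraries, grouped by complex and ordered by mean level within each group; each point is 1 library and the grey line spans the 4 values. Most polymerase genes and CCNC lie at or above 100 FPKM and most Mediator genes near 10, while POLR2A, MED30 and MED24 show circles (OTX-015) apart from squares (DMSO) in both lines.

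The first comparison asked what OTX-015 did to these genes relative to DMSO in both lines. POLR2A, the catalytic subunit with the C-terminal domain, and CCNC rose, while the Mediator subunits MED30, MED24, MED12 and MED12L fell. These 6 of 48 genes were 12.5% of the members, against 6.15% of all genes tested (3.57% rose and 2.58% fell). The remaining 42 did not pass, and 17 of the 48 (35.4%) had an unadjusted p under 0.05, against 22.7% of all genes tested. Of the 10 epithelial markers, CDH1 and KRT8 rose and KRT7 fell in the same test, and their part in the members' differences was not tested. The median difference of the 48 genes was 0.04 log2 in wtBRCA1 cells and -0.16 in vector cells, with 0.00 in both lines for all genes tested. By size alone, POLR2A was at least 1 log2 unit higher in both lines, as were 4.58% of all genes, and MED30, MED24, MED12, MED12L and MED13L were at least 1 log2 unit lower in both, as were 4.43%. Differences of that size in 1 line numbered 4 higher and 9 lower in wtBRCA1 cells (13.0% and 13.4% of all genes) and 3 higher and 10 lower in vector cells (13.0% and 12.7%). Both OTX-015 libraries were above both DMSO libraries for 8 members and below them for 12, against 21.1% and 18.9% of all genes.

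Among polymerase genes, POLR2A had 91.9 FPKM under OTX-015 and 40.6 under DMSO in wtBRCA1 cells, and 97.1 under OTX-015 and 14.4 under DMSO in vector cells. Both OTX-015 libraries were above both DMSO libraries, and they lay close together while the DMSO libraries of the 2 lines were 2.82-fold apart. The ratio of OTX-015 to DMSO was 2.26 in wtBRCA1 cells and 6.75 in vector cells, and the effect over both lines was 1.92 ± 0.39 log2 (SE, limma adjusted p = 0.0253). POLR2B, the other large subunit, which forms the active centre with POLR2A, had 170 FPKM under OTX-015 and 101 under DMSO in wtBRCA1 cells, and 158 and 78.1 FPKM in vector cells. Its groups did not overlap either, and its effect of 0.88 ± 0.27 log2 did not pass (limma adjusted p = 0.0894). POLR2L, a small subunit shared by the 3 nuclear RNA polymerases, had an effect of 0.99 ± 0.26 log2 and did not pass (limma adjusted p = 0.0563).

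The other 9 polymerase genes had OTX-015 effects over both lines between -0.19 and 0.29 log2. POLR2C and POLR2J, which form the platform on which the enzyme assembles, were at 0.14 and -0.19 log2. The stalk genes POLR2D and POLR2G were at -0.07 and 0.08, and the shared subunits POLR2E, POLR2F, POLR2H and POLR2K at -0.02, -0.06, 0.23 and -0.19. Such an effect averages the 2 lines, and 8 of the 12 polymerase genes had opposite signs in them, as had 5410 of 18304 genes tested. In wtBRCA1 cells 10 of 12 were positive (median 0.48 log2), as were 9046 of all genes. In vector cells 8 were negative (median -0.12 log2), as were 8448. POLR2G was at 0.62 log2 in wtBRCA1 cells and -0.45 in vector cells. The difference between the lines was not tested. For OTX-015, no polymerase gene was called under median-of-ratios scaling or quantile normalization, and POLR2A kept its direction in both.

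The kinase module held 3 of the 6 calls among its 7 genes (42.9%, against 6.15% of all genes tested). These 3, CCNC, MED12 and MED12L, were each called in 0 of 8 alternative settings of the processing. CCNC, whose protein activates CDK8 and CDK19, had 468 FPKM under OTX-015 and 208 under DMSO in wtBRCA1 cells, and 324 under OTX-015 and 190 under DMSO in vector cells. Each OTX-015 library was above both DMSO libraries, and CCNC rose by 0.97 ± 0.24 log2 over both lines (SE, limma adjusted p = 0.0471). MED12, which is needed for the activity of the kinase, moved the other way. Its level was 1.86 FPKM under OTX-015 and 5.74 under DMSO in wtBRCA1 cells, and 0.362 under OTX-015 and 6.41 under DMSO in vector cells. MED12 fell by 1.84 ± 0.46 log2 (SE), with a limma adjusted p of 0.04996, at the threshold itself. As a low gene its effect moved with the pseudocount, to -2.69 log2 with 0.1 and -0.87 log2 with 5, and it passed in neither (limma adjusted p = 0.0751 and 0.0959).

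MED12L, its paralog, had 3.88 FPKM under OTX-015 and 25.4 under DMSO in wtBRCA1 cells, and 5.31 and 12.0 FPKM in vector cells. It fell by 1.74 ± 0.42 log2 (SE, limma adjusted p = 0.0425), and its groups did not overlap. MED13L, one of the paralogs that tether the kinase module to the core complex, had 3.90 FPKM under OTX-015 and 18.0 under DMSO in wtBRCA1 cells, and 6.14 and 13.6 FPKM in vector cells. Its difference of -1.50 ± 0.38 log2 did not pass (limma adjusted p = 0.0532). MED13, the other, had 2.78 FPKM under OTX-015 and 17.5 under DMSO in wtBRCA1 cells, and 2.66 and 2.70 FPKM in vector cells. The wtBRCA1 DMSO library was thus the high one for MED13, and the other 3 lay together. MED12, MED12L and MED13L were thus lower under OTX-015 in both lines, and MED13 in wtBRCA1 cells, with a difference of only -0.02 log2 in vector cells. The median of the 7 module genes was -1.23 log2 in wtBRCA1 cells and -0.02 in vector cells.

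CDK8 had 8.30 FPKM under OTX-015 and 14.9 under DMSO in wtBRCA1 cells, and 13.6 and 9.10 FPKM in vector cells, opposite directions in the 2 lines. CDK19 had 17.7 and 17.8 FPKM in wtBRCA1 cells and 4.11 and 2.67 FPKM in vector cells, so its line difference exceeded its OTX-015 difference.

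**Figure D2:**
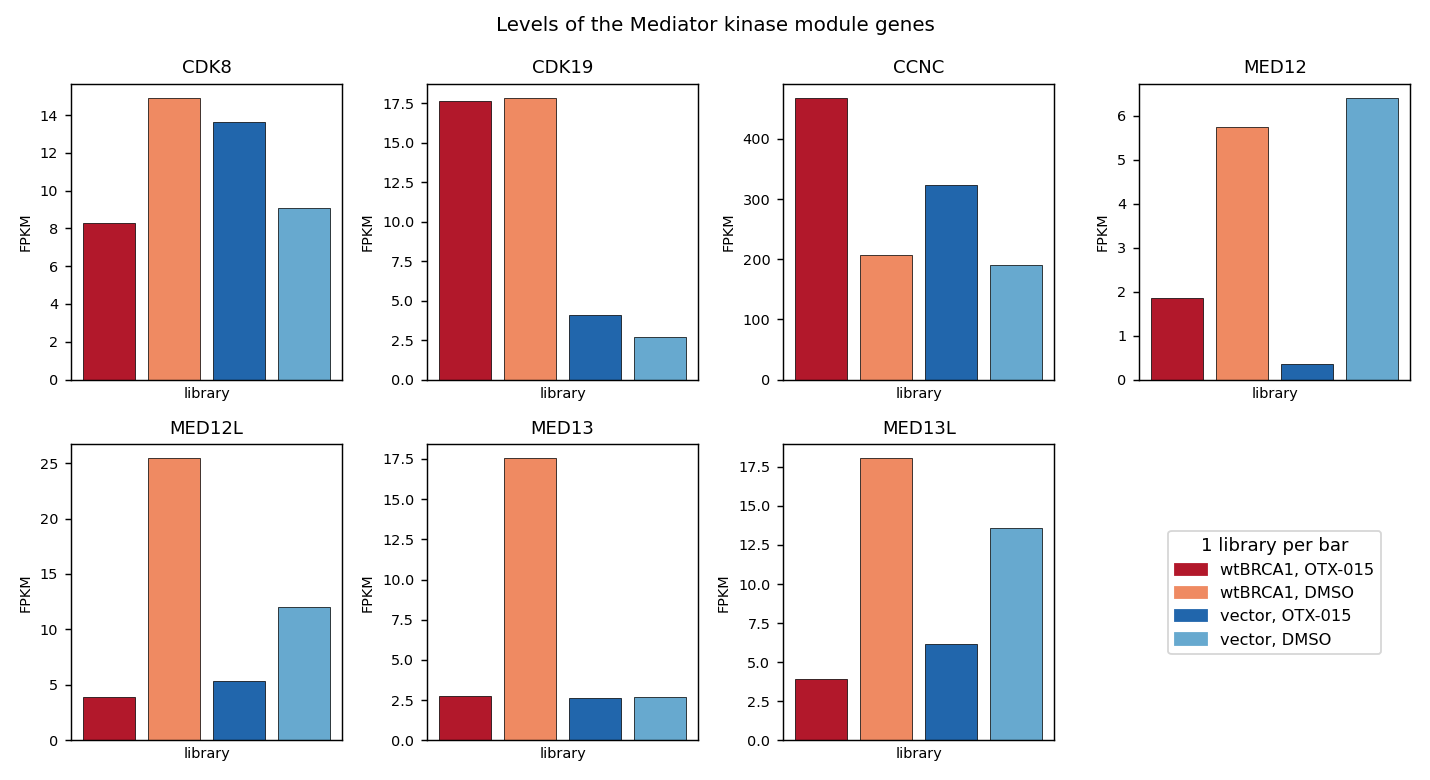
FPKM of the 7 kinase module genes, 1 bar per library, each panel on its own axis from 0. CCNC is higher under OTX-015 in both lines, MED12, MED12L and MED13L are lower, and CDK19 separates wtBRCA1 from vector cells.

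In the head of Mediator, which contacts the polymerase, 1 of 11 genes fell and none rose, against 2.58% and 3.57% of all genes tested. MED30, a subunit found in animals but not in yeast, had 6.82 FPKM under OTX-015 and 39.0 under DMSO in wtBRCA1 cells, and 9.14 and 35.3 FPKM in vector cells. It was 5.72-fold lower in wtBRCA1 cells and 3.86-fold lower in vector cells, and over both lines it fell by 2.10 ± 0.35 log2 units (SE; limma adjusted p = 0.0128), the lowest OTX-015 p of the 48 genes. MED6 had a difference of -1.96 log2 in wtBRCA1 cells and -0.59 in vector cells, MED22 of -1.09 and -0.92, and MED27 of -0.89 and -1.02, and none of these passed. MED29 (1.40 log2 in wtBRCA1 cells and 0.77 in vector cells) and MED20 (0.65 and 0.90) had positive differences that did not pass.

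In the tail, where many activators bind, 1 of 5 genes fell, a single call, against 2.58% of all genes tested. MED24 had 15.4 FPKM under OTX-015 and 46.7 under DMSO in wtBRCA1 cells, and 9.47 and 45.1 FPKM in vector cells. It was 3.02-fold lower in wtBRCA1 cells and 4.77-fold lower in vector cells, and both DMSO libraries lay close together. MED24 fell by 1.84 ± 0.34 log2 (SE, limma adjusted p = 0.0193). MED25 and MED16 had effects of -0.88 and -0.84 log2, MED23 of 0.35 and MED15, which binds the sterol regulator SREBP, of 0.06, and none passed. MED15 turned to -0.01 under median-of-ratios scaling.

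None of the 9 middle-module genes passed. MED19 had 0.95 log2 in wtBRCA1 cells and 0.89 in vector cells, MED31 had 1.39 and 0.50, and MED26, which recruits elongation factors, had 0.51 and 0.85. MED1, the docking subunit for nuclear receptors, was at 3.80 FPKM under OTX-015 and 7.85 under DMSO in wtBRCA1 cells and at 8.80 and 9.01 FPKM in vector cells. MED14, the backbone, was at 22.7 and 39.1 FPKM in wtBRCA1 cells and at 35.3 and 21.1 FPKM in vector cells, lower under OTX-015 in the first line and higher in the other. None of the 3 CDK-activating kinase genes passed, with effects of 0.61 log2 for CDK7, -0.11 for CCNH and 0.21 for MNAT1.

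**Figure D3:**
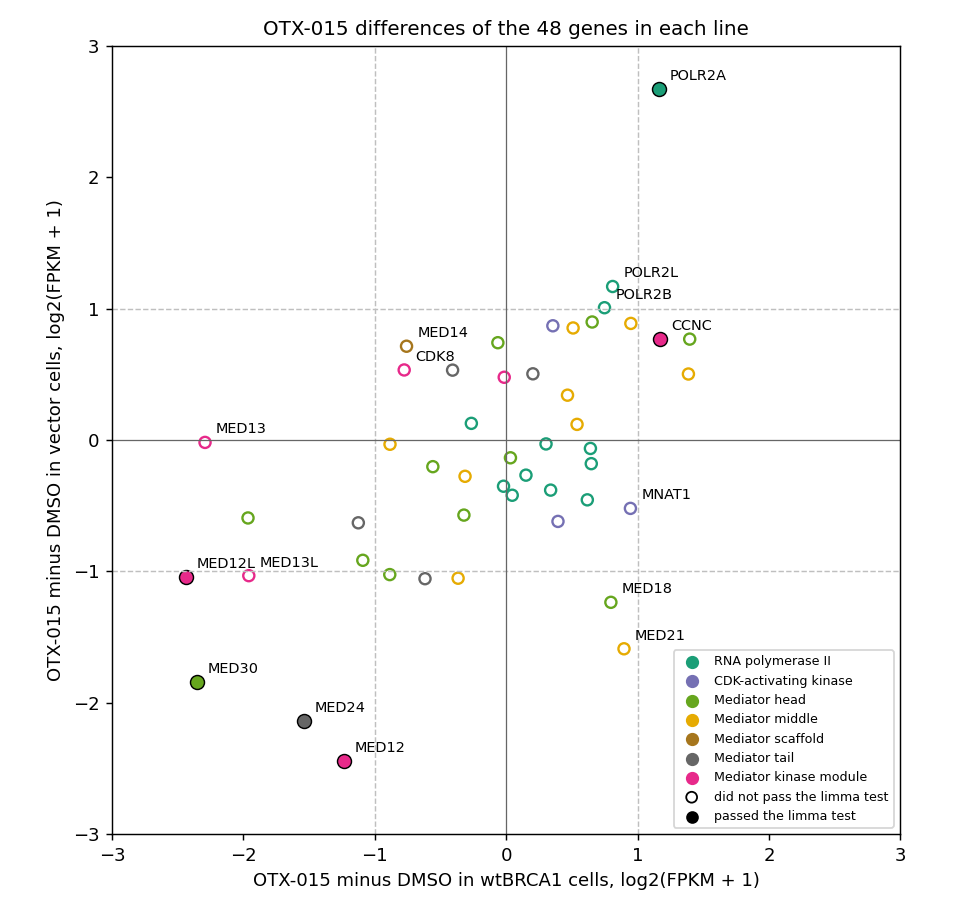
OTX-015 minus DMSO on log2(FPKM + 1) in wtBRCA1 cells (horizontal axis) and in vector cells (vertical axis), 1 point per gene, filled where the limma test was passed; dashed lines mark 1 log2 unit. The axes share no library. POLR2A and CCNC lie at the upper right, MED30, MED24, MED12 and MED12L at the lower left, and MED21 and MED18 at the lower right.

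The DNA just upstream of the genes that rose or fell is shown so that the members called in opposite directions can be read side by side. The sequences are the 150 bases before the RefSeq transcript start nearest the gene's end in GENCODE 29 (GRCh38.p14, the same assembly as the authors' hg38), 5′ to 3′ on the gene's strand. RefSeq promoters were matched by symbol for 36 of the 48 genes, and MED30 is named only. Capitals mark matches, on either strand, to any of 6 motifs searched. These were the TATA box (letters TATAAA), the CCAAT box (letters CCAAT), the E-box (letters CACGTG), the ETS core (letters CCGGAA), the GC box (letters GGGCGG) and the palindromic NRF1 motif. The matches shown do not overlap one another.
POLR2A, chr17:7484216-7484365, plus strand: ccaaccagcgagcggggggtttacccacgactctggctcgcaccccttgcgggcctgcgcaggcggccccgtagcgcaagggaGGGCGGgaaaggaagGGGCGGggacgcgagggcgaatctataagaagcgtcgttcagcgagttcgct
CCNC, chr6:99568815-99568964, minus strand: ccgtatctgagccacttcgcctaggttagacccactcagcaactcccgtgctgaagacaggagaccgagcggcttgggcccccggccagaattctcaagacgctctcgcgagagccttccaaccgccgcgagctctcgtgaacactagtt
MED24, chr17:40054409-40054558, minus strand: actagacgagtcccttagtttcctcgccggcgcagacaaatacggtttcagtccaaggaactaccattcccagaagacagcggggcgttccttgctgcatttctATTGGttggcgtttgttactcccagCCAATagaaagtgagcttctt
MED12, chrX:71118446-71118595, plus strand: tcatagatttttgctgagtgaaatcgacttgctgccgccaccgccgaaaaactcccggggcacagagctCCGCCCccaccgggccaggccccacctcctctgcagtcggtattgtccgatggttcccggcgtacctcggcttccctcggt
MED12L, chr3:151085514-151085663, plus strand: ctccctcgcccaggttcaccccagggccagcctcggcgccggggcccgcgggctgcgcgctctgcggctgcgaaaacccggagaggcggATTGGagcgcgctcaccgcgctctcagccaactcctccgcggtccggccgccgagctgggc
POLR2A had 2 GC boxes and MED12 had 1, a motif found in 36.8% of the 35116 RefSeq promoter windows of this length. MED24 had 2 CCAAT boxes and MED12L had 1, against 23.5% of windows with any. CCNC had no match to the 6 motifs. The other shares were 6.71% for the TATA box, 4.57% for the E-box, 11.1% for the ETS core and 0.9% for the NRF1 motif, none of which occurred in these 5 windows. The MED24 start used lies 6807 bases inside the GENCODE 29 gene, and the 4 others lie within 159 bases of the annotated end. A match is a stretch of letters, not a measured binding site.

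The second comparison asked which members differed between wtBRCA1 and vector cells whichever treatment they had. CDK19, a kinase of the Mediator kinase module, and POLR2H, a subunit shared by the 3 nuclear polymerases, rose in wtBRCA1 cells, and POLR2L and CCNH, the gene of cyclin H, fell. These 4 of 48 genes were 8.33%, near the 8.09% of all genes tested (4.75% rose and 3.34% fell). The other 44 did not pass, and 10 of the 48 (20.8%) had an unadjusted p under 0.05, against 23.3% of all genes tested. Of the 10 epithelial markers, 7 passed between the lines: KRT5 rose by 4.79 log2, KRT6A by 2.67 and KRT17 by 1.60 in wtBRCA1 cells, while KRT19 fell by 5.63, KRT18 by 2.12, KRT8 by 1.87 and KRT7 by 0.67. The summed level of the 10 was 7782 FPKM in wtBRCA1 cells and 26920 in vector cells under OTX-015, and 6989 and 11390 FPKM under DMSO. The part of these keratin differences in the members' line differences was not tested. The 2 treatments are not replicates of the line, so BRCA1 and any other difference between the lines cannot be told apart. The median line difference of the 48 genes was 0.02 log2 under OTX-015 and 0.01 under DMSO. By size alone, CDK19 was at least 1 log2 unit higher under both treatments, as were 6.11% of all genes, and MED9 and POLR2L were at least 1 log2 unit lower under both, as were 4.44%. Under OTX-015 6 members were at least 1 log2 unit higher in wtBRCA1 than in vector cells and 4 lower, where 27.7% of all genes differed by as much in either direction, and under DMSO 6 were higher and 5 lower, where 26.5% did. Without regard to size, 10 members were higher in both wtBRCA1 libraries than in both vector libraries and 9 lower, against 22.1% and 19.2% of all genes.

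CDK19 had 17.7 FPKM in wtBRCA1 cells and 4.11 in vector cells under OTX-015, and 17.8 and 2.67 FPKM under DMSO. It was 4.29-fold higher under OTX-015 and 6.68-fold higher under DMSO, with no overlap of the lines, and it rose by 2.11 ± 0.37 log2 (SE, limma adjusted p = 0.0094). CDK8 did not differ in this way, with 8.30 FPKM in wtBRCA1 cells and 13.6 in vector cells under OTX-015 and 14.9 and 9.10 FPKM under DMSO. The ratio of CDK19 to CDK8 was therefore 2.13 and 1.20 in wtBRCA1 cells under OTX-015 and DMSO, and 0.302 and 0.2935 in vector cells. Their upstream sequences, shown because the paralogs behaved differently, are laid out as above.
CDK19, chr6:110815856-110816005, minus strand: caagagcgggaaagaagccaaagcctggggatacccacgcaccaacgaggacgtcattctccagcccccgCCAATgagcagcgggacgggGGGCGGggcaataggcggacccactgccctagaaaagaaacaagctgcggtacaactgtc
CDK8, chr13:26253979-26254128, plus strand: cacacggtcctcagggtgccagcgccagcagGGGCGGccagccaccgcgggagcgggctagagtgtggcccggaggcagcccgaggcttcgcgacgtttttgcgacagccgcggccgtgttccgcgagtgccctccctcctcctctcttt
The CDK19 window holds 1 CCAAT box and 1 GC box, and the CDK8 window 1 GC box.

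The other paralog pairs had no such constant split. MED12L to MED12 was 2.08 and 4.43 in wtBRCA1 cells under OTX-015 and DMSO, and 14.7 and 1.875 in vector cells. MED13L to MED13 was 1.40 and 1.03 in wtBRCA1 cells, and 2.31 and 5.03 in vector cells. MED12 was below 1 FPKM in the library that gave the ratio of 14.7.

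POLR2H had 324 FPKM in wtBRCA1 cells and 109 in vector cells under OTX-015, and 207 and 124 FPKM under DMSO, and it rose by 1.15 ± 0.28 log2 (SE, limma adjusted p = 0.039). POLR2G, the stalk subunit, was also higher in both wtBRCA1 libraries, with 741 FPKM in wtBRCA1 cells and 304 in vector cells under OTX-015 and 482 and 417 FPKM under DMSO, and did not pass (limma adjusted p = 0.136). POLR2L had 135 FPKM in wtBRCA1 cells and 409 in vector cells under OTX-015, and 76.4 and 181 FPKM under DMSO. Both wtBRCA1 libraries lay below both vector libraries, and POLR2L fell by 1.42 ± 0.26 log2 (SE, limma adjusted p = 0.0116). POLR2H and POLR2L, subunits of the same enzyme, had opposite line differences, but POLR2H was called in 0 of 8 alternative settings. POLR2L shares exon bases with CD151, whose levels are given below.

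The CDK-activating kinase genes also parted. CCNH had 19.0 FPKM in wtBRCA1 cells and 36.7 in vector cells under OTX-015, and 14.2 and 56.9 FPKM under DMSO, and it fell by 1.42 ± 0.36 log2 (SE, limma adjusted p = 0.0431). CDK7, its partner, had 24.0 FPKM in wtBRCA1 cells and 14.3 in vector cells under OTX-015, and 18.5 and 7.39 FPKM under DMSO, and did not pass (0.96 ± 0.35 log2, limma adjusted p = 0.134). MNAT1, which stabilises the pair, was at 31.2 and 25.5 FPKM under OTX-015 and at 15.7 and 37.1 FPKM under DMSO. None of the 26 head, middle, tail and MED14 genes passed. Of all 18304 genes tested, 8494 were lower in wtBRCA1 cells under OTX-015 and 8352 under DMSO, with medians of 0.00 and 0.04 log2. In the middle module this held for 5 of 9 genes under OTX-015 and for 8 of 9 under DMSO, with medians of -0.59 and -0.65 log2. MED9 was the one lower by at least 1 log2 unit under both treatments, with 1.62 FPKM in wtBRCA1 cells and 5.06 in vector cells under OTX-015 and 2.25 and 6.33 FPKM under DMSO.

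**Figure D4:**
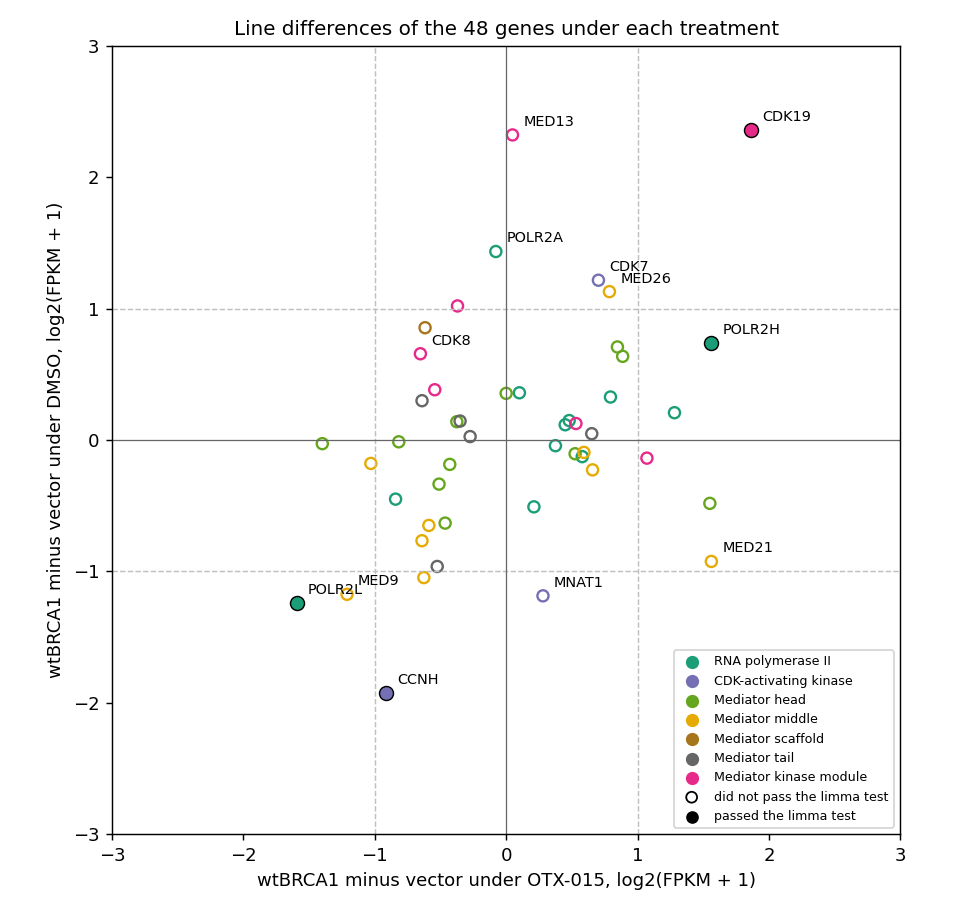
wtBRCA1 minus vector on log2(FPKM + 1) under OTX-015 (horizontal axis) and under DMSO (vertical axis), 1 point per gene, filled where the limma test was passed; dashed lines mark 1 log2 unit. The axes share no library. CDK19 lies alone at the upper right, POLR2L, MED9 and CCNH at the lower left.

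Several members share their locus with another transcribed gene. The kit kept strand, by the labels' protocols, but the sources do not say if the counting used it, so reads of genes on opposite strands cannot be told apart here. Of the 48 genes, 27 overlap a gene at 2 FPKM or more in GENCODE 29, and 14 share exon bases with a protein-coding one. Of the 10 genes called in either comparison, POLR2L shares 257 exon bases with CD151, a tetraspanin gene on the opposite strand, CCNH shares 771 with the Ras regulator gene RASA1 and CCNC shares 528 with an antisense transcript.

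CD151 had 144 FPKM in wtBRCA1 cells and 740 in vector cells under OTX-015, and 83.5 and 406 FPKM under DMSO, the same order of libraries as POLR2L. RASA1 had 9.94 FPKM in wtBRCA1 cells and 16.4 in vector cells under OTX-015, and 8.63 and 19.9 FPKM under DMSO, lower in the wtBRCA1 line as CCNH was. The part of the overlap in these calls was not tested. The antisense transcript at CCNC was at 44.8 to 55.3 FPKM in the 4 libraries, with differences under OTX-015 of 0.24 log2 in wtBRCA1 cells and 0.30 in vector cells. MED30, MED12, POLR2A, CDK19 and POLR2H overlap no gene at 2 FPKM or more, and MED24 shares no exon base with one.

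**Figure D5:**
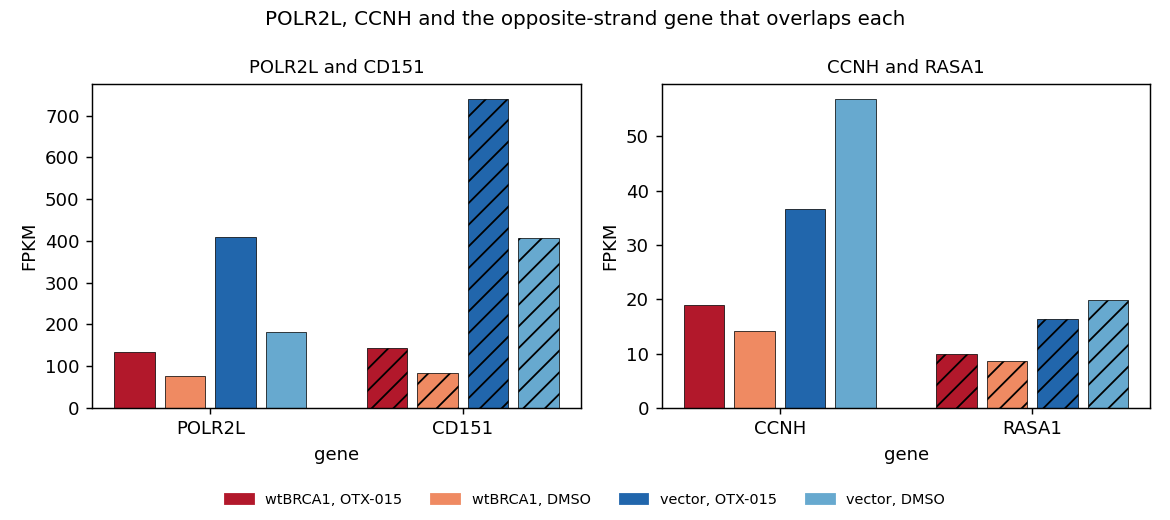
FPKM of POLR2L and CCNH (plain bars) and of the protein-coding gene that overlaps each on the opposite strand (hatched bars), 1 bar per library, axes from 0. In both panels the overlapping gene is lower in both wtBRCA1 libraries than in both vector libraries, as the member is.

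Other genes of the transcription machinery, taken as lists with earlier results known, were called at shares between 3.23% and 7.14% for OTX-015, near the 6.15% of all genes, and between 6.45% and 10.5% for the line, near 8.09%. Of 31 general transcription factor genes tested, 1 rose under OTX-015 and none fell. It was GTF2B, the gene of TFIIB, with 75.2 FPKM under OTX-015 and 26.4 under DMSO in wtBRCA1 cells and 69.0 and 25.3 FPKM in vector cells (1.44 ± 0.31 log2, SE, limma adjusted p = 0.0284). Between the lines, the TFIID subunit TAF13 rose by 1.28 log2 and TAF10 fell by 1.63 log2. Of 14 subunits of Integrator, the complex that cleaves nascent RNA at paused polymerase, 1 rose under OTX-015: INTS4 had 28.6 FPKM under OTX-015 and 5.02 under DMSO in wtBRCA1 cells and 37.4 and 9.92 FPKM in vector cells (2.06 ± 0.35 log2, SE, limma adjusted p = 0.0139). INTS7 rose by 1.78 log2 in the wtBRCA1 line. Of 19 genes specific to RNA polymerases I and III, POLR3GL rose by 1.42 log2 under OTX-015, POLR3C rose by 1.47 log2 in the wtBRCA1 line and POLR1C, a subunit of both enzymes, fell by 1.47 log2 there. The medians of these 3 lists under OTX-015 were -0.01, 0.44 and -0.09 log2 over both lines, beside 0.03 for all genes tested and -0.05 for the 48 genes.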

How the data were processed

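The authors deposited 1 table of FPKM values per library, made, per the submitters' processing notes, with TopHat2 and Cufflinks and the hg38 build; the sources used here give no versions, annotation or scaling. RNA was poly(A)-selected, per the labels' protocols. Of 60487 gene entries, 94.2% were in GENCODE 29; 7088 genes of short structural RNA were dropped and entries of 75 repeated symbols were summed. Genes with at least 1 FPKM in at least 1 library (18304) were analysed as log2(FPKM + 1) with limma 3.58.1 in R 4.3.3. The fit had line and treatment as terms, a mean-variance trend, Benjamini-Hochberg adjustment and a threshold of 0.05. It was also run on simulated data with spreads drawn from the fit itself, so that run cannot check the assumed spread. Pairs of libraries had no test and are given as differences, with counts at 1 log2 unit or more. Members and lists were chosen with earlier results of these data known. Genes given with all 4 values are those past the threshold, those at least 1 log2 unit apart in both pairs, the 2 highest and 2 lowest differences of response, paralogs, and examples of each module; the overlapping genes shown were chosen after their values were seen; some overlapping genes are not reported here. The 8 alternatives changed the pseudocount (0.1, 5), the filter (5 FPKM, none), the scaling (median of ratios, quantiles), the trend (none) or the terms (1 factor left out). Python 3.11.15, pandas 2.3.3, numpy 2.4.6 and matplotlib 3.10.9 were used.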

Additional observations from a re-analysis of the deposited data

Results flagged for a closer look

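For 5 genes the OTX-015 difference was at least 0.5 log2 in both lines and of opposite sign, and the difference between the lines was not tested, since 1 library per group leaves no degree of freedom for it. MED21, a middle-module subunit, had 32.9 FPKM under OTX-015 and 17.2 under DMSO in wtBRCA1 cells and 10.5 and 33.5 FPKM in vector cells, a difference of responses (wtBRCA1 minus vector) of 2.49 log2. MED18, in the head, had 13.0 and 7.08 FPKM in wtBRCA1 cells and 3.80 and 10.3 FPKM in vector cells, with 2.03 log2. MNAT1 had 31.2 and 15.7 FPKM in wtBRCA1 cells and 25.5 and 37.1 FPKM in vector cells, with 1.47 log2. For MED14 and CDK8 the difference ran the other way, -1.47 and -1.31 log2. Of the 48 genes 18 had opposite signs in the 2 lines, as had 5410 of the 18304 genes tested. The lowest differences of responses were those of MED13 (-2.27 log2) and POLR2A (-1.51 log2), which had the same sign in both lines.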

How the results depend on the processing

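The calls depend on the processing. The 6 members called for OTX-015 came to 3 at pseudocount 0.1, 2 at pseudocount 5, 2 with an FPKM filter of 5, 2 after median-of-ratios scaling, and 0 after quantile normalization, with no filter, without the trend or with the line term left out. MED30 and MED24 were called in 4 of the 8 alternatives, POLR2A in 1 and CCNC, MED12 and MED12L in 0. The count over all genes, 1125, became 714, 395, 512 and 563 in the first 4 of these settings, and 163, 59, 4 and 1 in the others. The 4 members called between the lines came to 2 with either pseudocount, with a filter of 5 and under either scaling, 1 with no filter, and 0 without the trend or without the treatment term. POLR2L was called in 6 alternatives, CDK19 in 5 and POLR2H and CCNH in 0. The count over all genes, 1480, became 819 with a pseudocount of 5, 802 with a filter of 5, 788 after quantile normalization, 492 with no filter, 155 without the trend and 58 without the treatment term. All 10 called members kept their direction under both scalings. The other alternatives could not turn it. The filters, the trend and the left-out term do not change an effect in this balanced design. A pseudocount cannot turn an effect with the same sign in both pairs, as each of the 10 had. The size of the MED12 effect, -1.84 log2, ran between -2.69 and -0.87 log2 over the 8 alternatives, the only one of the 10 to move by over 1.5 times. Among members that did not pass, MED15 under OTX-015 was -0.007 after median-of-ratios scaling and -0.0333 after quantile normalization, where POLR2C was -0.0004 and POLR2G -0.27; CDK8 between the lines was -0.0287 and -0.0265 under these scalings. Members at least 1 log2 higher under OTX-015 in vector cells came to 1 after quantile normalization against 3. With a pseudocount of 5, members at least 1 log2 unit lower numbered 4 against 10 for OTX-015 in vector cells, 2 against 4 between the lines under OTX-015 and 3 against 5 under DMSO, and those higher under DMSO 3 against 6. The cause of these shifts was not tested. The line term of the fit compares the treatments within each line. No pairing of replicate cultures was possible because each group has 1 library and the labels carry no replicate numbers. Leaving out a library leaves the fit no residual degree of freedom.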

Other observations

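The files also list genes near the polymerase set that its symbols do not cover. POLR2J3, a near-identical copy of POLR2J, had 3.63 FPKM under OTX-015 and 1.08 under DMSO in wtBRCA1 cells, and 6.14 and 0.000536 FPKM in vector cells, while POLR2J2 was listed at 0 in all 4 libraries. POLR2J itself had 20.2 and 20.5 FPKM in wtBRCA1 cells and 14.2 and 18.4 FPKM in vector cells, and the sources do not say how reads were divided among the copies. POLR2M was at 1.34 to 2.79 FPKM in the 4 libraries.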
